A study of Homo sapiens with 6 samples.

Results

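The splicing events of 10 kinase genes of the MAPK cascades, MAP4K4, MAP2K1, MAP2K2, MAP2K3, MAP2K4, MAP2K5, MAP2K7, MAPK8, MAPK9 and MAPK14, were examined after SAM68 overexpression in lung adenocarcinoma cells. The events were taken by gene symbol and selected on measured values, namely a mean of at least 10 junction reads over the 6 libraries. This kept 99 of the 102 events listed for these genes, out of 66372 tested events and 78336 listed events in all. The lowest kept were an event of MAP2K3 with a mean of 13.2 reads, an event of MAPK8 with 18.5 and an event of MAPK9 with 18.7. Left out were 1 event of MAP4K4 with 7.17 reads and 2 events of MAP2K5 with 2.5 and 0.83. The 99 events comprised 70 skipped exons, 18 pairs of mutually exclusive exons, 8 alternative 3ʹ splice sites, 1 alternative 5ʹ splice site and 2 retained introns.

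NCI-H1975, which the labels spell NCl-H1975, is an established human lung adenocarcinoma cell line. The control cells received the empty PCDNA3.1 plasmid and the SAM68 cells the PCDNA3.1-SAM68 plasmid, each at 2 µg per well with lipofectamine, and RNA was taken with Trizol after 48 h. Each group had 3 libraries, numbered here by their place in the lists, and both groups were transfected. The lists do not name their group, and the first was taken as the control from a splicing plot of the study. Percent spliced in (PSI) is the share of junction reads that belong to the longer or inclusion form, after division of each count by the effective length of its form. For mutually exclusive exons it is the share of the exon transcribed first. Differences are SAM68 minus control in percentage points, and the ± values are SDs over 3 libraries. Adjusted p-values come from a quasi-binomial test with Benjamini-Hochberg adjustment over all tested events of a type, and the 95% intervals from the same fit. The study names the libraries biological replicates.

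MAPK cascades pass a signal from one kinase to the next by phosphorylation. MAP4Ks and MAP3Ks stand at the top, the dual-specificity MAP2Ks in the middle, and the MAPKs at the end, where they phosphorylate transcription factors and other kinases. The JNK and p38 kinases respond to stress and cytokines, and several of their isoforms differ by an exon of the kinase domain or by the end of the protein. SAM68 is an RNA-binding protein of the STAR family that takes part in the choice of splice sites and is itself a target of MAPK signalling.

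The plasmid gene was checked first. KHDRBS1, which encodes SAM68, had 311.5, 328.8 and 316.3 junction reads per 1000000 (rpm) in the controls against 1232, 1261 and 1278 with SAM68, where reads from the plasmid count too. Its log2 fold change came to 1.98 (standard error 0.047, limma adjusted p = 8.77e-22 with Benjamini-Hochberg adjustment). Between 16951876 and 19737729 reads per library crossed the junctions of skipped exon events. Of the markers examined, the epithelial keratin KRT18 had 471.5 to 492.7 rpm of junction reads in the controls against 521.3 to 530.8 with SAM68. KRT7 had 3.03 to 4.49 against 1.26 to 2.20, and KRT8 had 520.2 in control library 1 against 229.8 to 253.3 in the other 5. These 3 keratins had unadjusted p of 0.0201, 0.0397 and 0.0132 in limma, with adjusted p of at least 0.252, and their part in the results was not tested. The other epithelial, lung, leukocyte, endothelial and fibroblast markers were not analysed here, as no event of theirs was tested.

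None of the 99 events met the calling rule of an adjusted p under 0.05 with a difference of at least 10 points, which called 0.0934% of all tested events. No event reached an adjusted p under 0.05 at any size either, the smallest was 0.378, and limma on the logit of PSI also called 0. By unadjusted p under 0.05 there were 7 events (7.07%), 3 with a higher and 4 with a lower PSI in the SAM68 libraries, beside 5.95% of all tested events. The PSI values of the groups did not overlap in 7 events (7.07%), beside 6.12% of all events with reads in every library. Both shares lay near those of all events. The median absolute difference was 1.05 points over the 99 events and 1.24 points over all tested events. A difference of at least 10 points was seen in 4 events (4.04%) and in 7.17% of all tested events, and 82 of the 99 differed by less than 5 points. Many events of 1 gene share junction reads, so they are not independent of each other.

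**Figure D1:**
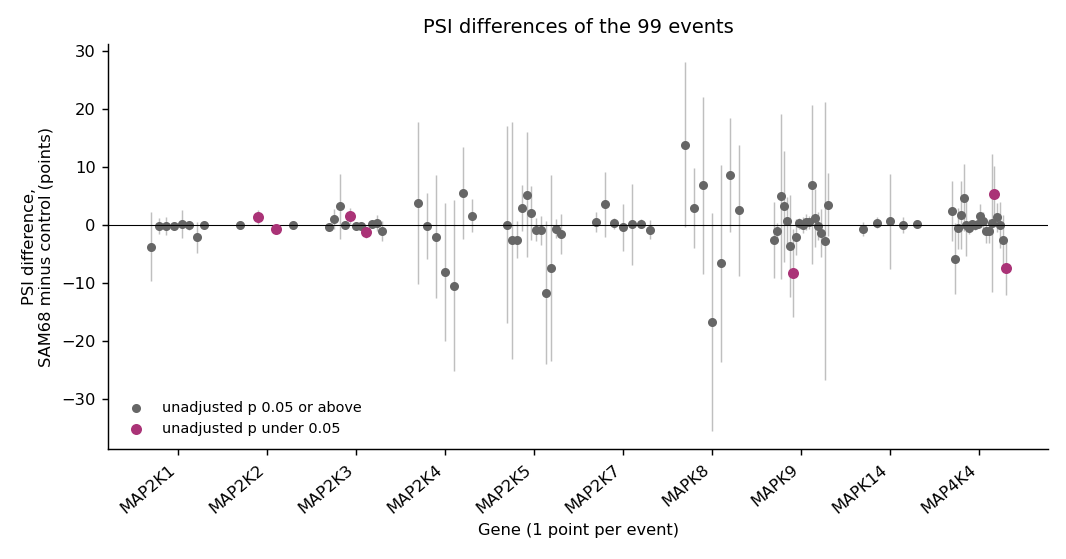
Difference in PSI (SAM68 minus control, percentage points, vertical axis) of each of the 99 events, grouped by gene, with 95% intervals from the quasi-binomial fit as grey lines and the 7 events with an unadjusted p under 0.05 in purple. The widest interval is that of a 93-base exon of MAPK9 with a mean of 29.2 reads, from -26.7 to 21.3 points, and most points of MAP2K1, MAP2K2, MAP2K3, MAP2K7 and MAPK14 lie close to 0.

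The genes differed in how much of their splicing was variable. PSI lay between 5% and 95% in 39 of the 99 events (39.4%), beside 32.3% of all tested events. In 47 events it was above 95% and in 13 below 5%. By gene, 12 of 20 events were variable in MAP4K4, 9 of 18 in MAPK9, 6 of 7 in MAPK8 and 4 of 7 in MAP2K4. The variable events were 4 of 12 in MAP2K5, 2 of 7 in MAP2K7, 1 of 8 in MAP2K1 and 1 of 5 in MAPK14. MAP2K2 with 4 events and MAP2K3 with 11 had none. The median number of reads per event ranged from 42.5 in MAPK8 to 1212 in MAP2K2, and over the variable events the standard error of the difference ranged from 1.28 to 12.2 points with a median of 3.89.

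MAP4K4 (ENSG00000071054, chr2:101696850-101894690, + strand of GRCh38) is a kinase of the Ste20 family that acts upstream of JNK. Of its cassette exons 2 are shown, because they gave the smallest p-value of all 99 events and a difference of opposite sign. Capitals mark the exon and lower case the adjoining 20 bases of each intron, read from hg38.
MAP4K4 192-base exon: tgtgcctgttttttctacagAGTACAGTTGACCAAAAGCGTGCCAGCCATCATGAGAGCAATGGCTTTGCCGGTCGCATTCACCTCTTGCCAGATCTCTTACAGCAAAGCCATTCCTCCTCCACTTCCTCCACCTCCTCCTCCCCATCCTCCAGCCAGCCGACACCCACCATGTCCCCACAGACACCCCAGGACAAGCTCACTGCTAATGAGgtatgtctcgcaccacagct
MAP4K4 162-base exon: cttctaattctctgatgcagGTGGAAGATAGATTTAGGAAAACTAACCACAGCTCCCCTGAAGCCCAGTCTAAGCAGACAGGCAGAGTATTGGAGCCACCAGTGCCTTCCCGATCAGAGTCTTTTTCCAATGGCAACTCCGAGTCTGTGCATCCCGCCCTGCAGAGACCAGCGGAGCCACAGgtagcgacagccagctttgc
The 192-base exon (chr2:101871494-101871685) is exon 24 of the 33 exons of the GENCODE 44 canonical transcript and the 162-base exon (chr2:101860825-101860986) exon 16. Both are wholly coding and a multiple of 3 in length.

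The 192-base exon showed a PSI of 39.0%, 36.2% and 38.4% in the controls against 29.5%, 27.4% and 34.8% with SAM68. Every SAM68 library lay below every control library. The difference was -7.30 points (standard error 2.42, 95% interval -12.0 to -2.56), with an unadjusted p of 0.00232 and an adjusted p of 0.378 in the quasi-binomial fit. The exact permutation test of 3 against 3 gave p = 0.1 (two-sided), the smallest it allows. The 162-base exon, read between exons 15 and 18, had 25.7%, 28.1% and 27.9% in the controls against 33.9%, 31.1% and 33.1% with SAM68. Here every SAM68 library lay above every control library, with a difference of 5.46 points (95% interval 0.618 to 10.3) and an adjusted p of 0.699 in the quasi-binomial test. Read between exons 15 and 17, the same exon had a difference of 0.384 points. By limma on the logit of PSI, the unadjusted p was 0.486 for the 192-base and 0.577 for the 162-base exon. With unmoderated spread in the quasi-binomial test, the unadjusted p was 0.0343 and 0.0268. Neither exon passed the adjusted threshold.

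MAP4K4 also has alternative splice sites. The acceptors of exon 19, 3 bases apart, are shown as a pair of AG ends that differ by 1 codon, with the added bases in capitals.
MAP4K4 acceptors 3 bases apart: ctcttcttcttttctaacagCAGtattg
The upstream acceptor (chr2:101866428) had a PSI of 79.7%, 77.9% and 78.6% in the controls against 73.3%, 67.7% and 78.0% with SAM68. SAM68 library 3 reached the control range. The difference was -5.73 points (95% interval -11.9 to 0.421), with an adjusted p of 0.805 in the quasi-binomial test, and without SAM68 library 2 it was -3.09 points. GENCODE 44 has 4 coding transcripts with the upstream and 6 with the downstream acceptor. Of a pair of acceptors 93 bases apart at exon 15, the upstream one was used at 27.1% ± 3.13 (SD, n = 3) in the control and 29.5% ± 2.00 (SD, n = 3) in the SAM68 libraries. Of a pair of donors 24 bases apart at exon 30, the downstream one was used at 11.6% ± 1.86 (SD, n = 3) and 11.1% ± 2.63 (SD, n = 3). In both the groups overlapped.

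A 9-base coding exon of MAP4K4 (exon 21, chr2:101868029-101868037) varied widely within both groups. It is given because its inclusion reads were absent from 1 library of each group.
MAP4K4 9-base exon: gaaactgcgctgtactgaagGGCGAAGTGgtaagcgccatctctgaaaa
Its PSI was 24.4%, 15.6% and 0% in the controls against 0%, 14.6% and 17.9% with SAM68. The library at 0 had 279 skipping reads in the control group and 362 in the SAM68 group, while the other 4 had 52 to 83 inclusion reads. A count of 0 allows up to 3 inclusion reads per library, and this covers counting error only. Its own dispersion was 37.6 against the 2.296 shared by all skipped exons, so the test uses a spread too small for it. This exon was named after its values were seen.

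Exons 13 and 14 of MAP4K4, listed as mutually exclusive, had a PSI of 57.9%, 54.8% and 62.2% in the controls against 68.5%, 54.8% and 65.9% with SAM68 (adjusted p = 0.664, quasi-binomial test). The difference was 4.76 points, and 2.06 to 8.89 when each library was left out in turn. With the other acceptor of exon 15 as the flank, the same exons had 73.1%, 68.0% and 69.7% in the controls against 73.2%, 67.7% and 75.0% with SAM68, a difference of 1.72 points. Both exons stand together in 13 annotated transcripts. The value is therefore a balance of junction reads between neighbouring exons. The same held for 14 of the 18 events listed as mutually exclusive, whose exons share at least 1 transcript in GENCODE 44. Apart from these, the exons are never found together in the annotation in 4 events, 1 of MAPK8, 1 of MAPK9 and 2 of MAPK14.

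**Figure D2:**
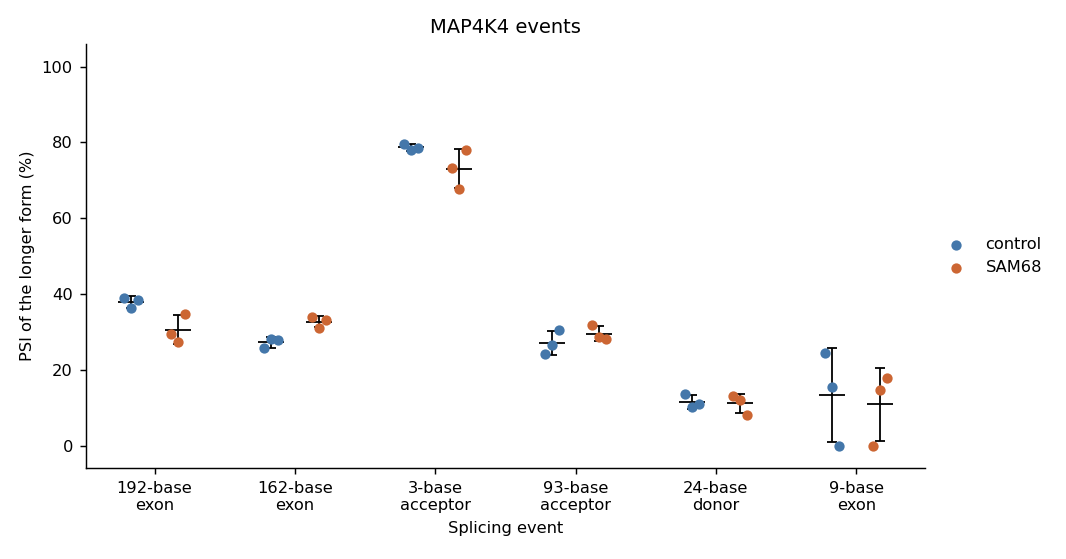
PSI (%, vertical axis) of 6 MAP4K4 events in each control (blue) and SAM68 (orange) library, with the mean and SD as black bars. The groups do not overlap for the 192-base exon, which is lower with SAM68, and for the 162-base exon, which is higher, while the 9-base exon is at 0 in 1 library of each group.

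MAP2K1 and MAP2K2 encode MEK1 and MEK2, the kinases of ERK. MAP2K1 (ENSG00000169032, chr15:66386837-66491656) had 1 variable event, the exons 3 and 4 of its canonical transcript, which stand together in 11 transcripts. The share of exon 3 was 68.0%, 63.9% and 67.4% in the controls against 58.9%, 64.7% and 64.6% with SAM68. The groups overlapped, and the difference was -3.70 points (95% interval -9.70 to 2.31, adjusted p = 0.837, quasi-binomial test). Without SAM68 library 1 it was -1.77 points. The 202-base exon 7 was read between exons 5 and 8, so that its skipping reads leave out exon 6 as well, and these numbered 0, 1 and 1 in the control and 0, 2 and 9 in the SAM68 libraries, beside 218 to 293 inclusion reads.

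MAP2K2 (ENSG00000126934, chr19:4090321-4124122, - strand) was read deeply, and its differences were small. Exon 8, of 65 bases, was read between exons 6 and 9, so that its skipping reads leave out exon 7 as well. It had 0 skipping reads in each SAM68 library beside 378 to 421 inclusion reads. The control libraries had 0, 5 and 7 skipping reads beside 372 to 431. Its PSI was 98.6% ± 1.25 (SD, n = 3) in the control against 100% in the SAM68 libraries (unadjusted p = 0.00779 and adjusted p = 0.632, quasi-binomial test). Skipping of the 214-base exon 7 had 1 read in each control library and 13, 2 and 5 reads in the SAM68 libraries, beside 1528 to 1799 inclusion reads. All 3 SAM68 libraries lay below the controls, and the difference was -0.645 points (adjusted p = 0.699, quasi-binomial test). Without SAM68 library 1 it was -0.31 points. The retained intron of MAP2K2 was at 1.29% ± 0.301 (SD, n = 3) and 1.31% ± 0.446 (SD, n = 3).

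MAP2K3 (ENSG00000034152, chr17:21284672-21315232) encodes MKK3, an activator of p38. A 125-base exon near its start (chr17:21296086-21296210), which is not in the canonical transcript, had a PSI of 2.30%, 2.69% and 1.04% in the controls against 2.21%, 4.93% and 3.90% with SAM68. The groups overlapped, with a difference of 1.67 points (adjusted p = 0.699, quasi-binomial test). Without SAM68 library 2 it was 1.04 points. The 52-base exon 7 had 0, 1 and 0 skipping reads in the controls against 10, 0 and 2 with SAM68, so that 1 SAM68 library carried most of the difference of -1.16 points. The other events of MAP2K3 differed by less than 3.3 points, and an upstream acceptor of exon 4, 74 bases away, had 0 to 5 reads per library.

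MAP2K4 (ENSG00000065559, chr17:12020829-12143830) encodes MKK4, which activates JNK and p38. The exon 2 of its canonical transcript, set against exon 3, had a share of 51.4%, 59.5% and 51.2% in the controls against 54.8%, 53.5% and 65.1% with SAM68, with both exons in 3 transcripts. The groups overlapped, and the difference of 3.77 points (adjusted p = 0.954, quasi-binomial test) became 0.11 to 6.51 when each library was left out in turn. Skipping from exon 1 to exon 4 was read in 1, 1 and 0 reads of the control and 0, 7 and 2 reads of the SAM68 libraries. Against this skipping, the 175-base exon 3 stood at 94.6%, 96.0% and 100% in the controls against 100%, 73.6% and 85.7% with SAM68, a difference of -10.4 points that rested on these few reads (95% interval -25.2 to 4.34, adjusted p = 0.699, quasi-binomial test). Read between exons 2 and 4, the same exon had 96.8%, 85.9% and 97.3% in the controls against 96.7%, 100% and 100% with SAM68. That difference had the opposite sign, 5.57 points (95% interval -2.41 to 13.6, adjusted p = 0.699, quasi-binomial test).

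MAP2K5 (ENSG00000137764, chr15:67542703-67807117) encodes MEK5, the kinase of ERK5. Its 30-base exon 17, wholly coding, is shown because it was the variable exon of this gene with the most reads and its groups did not overlap.
MAP2K5 30-base exon: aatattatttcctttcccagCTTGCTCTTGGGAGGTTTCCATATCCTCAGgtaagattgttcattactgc
The exon (chr15:67727916-67727945) had a PSI of 86.4%, 100% and 86.6% in the controls against 81.0%, 83.6% and 73.5% with SAM68. Every SAM68 library lay below every control library. The skipping reads behind this were 5, 0 and 9 in the controls against 9, 8 and 15 with SAM68, and the difference was -11.6 points (95% interval -23.9 to 0.694, adjusted p = 0.699, quasi-binomial test). Without control library 2, which had no skipping reads, it was -7.11 points. The 70-base exon 4 had 0, 5 and 1 skipping reads in the control and none in the SAM68 libraries.

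MAP2K7 (ENSG00000076984, chr19:7903843-7914478) encodes MKK7, an activator of JNK. Its 48-base exon (chr19:7905808-7905855) is in 1 annotated transcript, which is coding, and is not in the canonical one. It is shown as a cassette exon that was used in all 6 libraries at a similar share.
MAP2K7 48-base exon: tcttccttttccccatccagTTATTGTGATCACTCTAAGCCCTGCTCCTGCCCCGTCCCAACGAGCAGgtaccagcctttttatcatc
Its PSI was 24.9%, 20.6% and 22.5% in the controls against 27.6%, 20.9% and 19.98% with SAM68. The group means of 22.7% and 22.8% differed by 0.163 points, with a 95% interval of -6.80 to 7.13, which leaves a shift of several points in either direction undetectable at this depth. An upstream acceptor of the 143-base exon 9, 21 bases away, was used at 1.52%, 3.45% and 7.15% in the controls against 12.8%, 2.75% and 7.41% with SAM68. The retained intron between exons 3 and 4 had a PSI of 0.217% in the control and 0.587% in the SAM68 libraries. An event listed as alternative acceptors 197 bases apart spans the same region, and its longer form begins at the start of exon 3, so that its PSI of 99.4% and 100% counts ordinary junctions into that exon. The groups overlapped in both.

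MAPK8 (ENSG00000107643, chr10:48306639-48439360, + strand) and MAPK9 (ENSG00000050748, chr5:180233143-180292099, - strand) encode JNK1 and JNK2, and MAPK14 (ENSG00000112062, chr6:36027782-36111236, + strand) encodes p38α. Each has a pair of exons of equal length in tandem, of which a transcript uses one. The pairs are shown with capitals at the positions that differ between both exons of a gene, in the order of transcription.
MAPK8 upstream exon: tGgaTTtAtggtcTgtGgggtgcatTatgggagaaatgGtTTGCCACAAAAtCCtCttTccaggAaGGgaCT
MAPK8 downstream exon: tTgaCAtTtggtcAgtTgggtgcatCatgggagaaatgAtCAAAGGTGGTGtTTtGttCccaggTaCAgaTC
MAPK9 upstream exon: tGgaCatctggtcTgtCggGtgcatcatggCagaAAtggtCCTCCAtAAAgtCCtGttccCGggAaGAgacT
MAPK9 downstream exon: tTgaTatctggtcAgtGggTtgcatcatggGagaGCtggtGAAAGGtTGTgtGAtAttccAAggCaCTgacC
MAPK14 upstream exon: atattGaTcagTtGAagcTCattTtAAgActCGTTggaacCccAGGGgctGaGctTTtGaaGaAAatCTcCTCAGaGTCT
MAPK14 downstream exon: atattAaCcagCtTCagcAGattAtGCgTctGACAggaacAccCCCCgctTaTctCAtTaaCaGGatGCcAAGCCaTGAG
The 72-base exons of MAPK8 (chr10:48424088-48424159 and chr10:48424514-48424585) differed at 28 positions and were 354 bases apart. Those of MAPK9 (chr5:180247855-180247926 and chr5:180247439-180247510) differed at 26 positions and were 344 bases apart. Between the genes the upstream exons were identical at 57 of 72 positions and the downstream exons at 56, against 44 within MAPK8 and 46 within MAPK9, so each exon was more like its counterpart in the other gene than like its neighbour. The 80-base exons of MAPK14 (chr6:36095987-36096066 and chr6:36100188-36100267) differed at 39 positions and were 4121 bases apart. All 6 exons are coding.

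JNK1 and JNK2 used mainly the downstream exon, and p38α mainly the upstream one. The upstream exon of MAPK8 had a PSI of 1.16%, 4.94% and 9.91% in the controls against 5.95%, 13.2% and 5.81% with SAM68, from 76 to 111 reads. That of MAPK9 had 2.03%, 1.16% and 0% in the controls against 0.427%, 0% and 0% with SAM68, from 181 to 258 reads. That of MAPK14 had 71.6%, 81.2% and 76.8% in the controls against 73.6%, 74.0% and 84.0% with SAM68. The groups overlapped in all 3 pairs. The differences were 2.97 points (95% interval -3.99 to 9.93) for MAPK8, -0.923 points (-2.23 to 0.384) for MAPK9 and 0.668 points (-7.54 to 8.88) for MAPK14, with adjusted p of 0.906, 0.788 and 0.971 in the quasi-binomial test. Leaving out each library in turn gave 0.55 to 5.26 points for MAPK8, -1.46 to -0.44 for MAPK9 and -2.74 to 3.00 for MAPK14. In MAPK8 the upstream exon is exon 7 of the canonical transcript, so the form that prevailed in these cells was not the canonical one, whereas in MAPK9 the downstream and in MAPK14 the upstream exon is canonical. The pair of MAPK9 was named for its likeness to that of MAPK8 after its values were seen. The deepest event of MAPK14 listed as mutually exclusive sets exon 4 against a 60-base exon (mean 200.2 reads). Its PSI was 99.5% in the control and 100% in the SAM68 libraries. An upstream acceptor of exon 7 of MAPK14, 27 bases away, was at 0.571% and 0%.

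The introns beside the 3 pairs were searched on the transcript strand for TAAA and TTAA, the letters of A/U-rich sites that SAM68 can bind, and for TAGGG, the letters of hnRNP A1 sites. Each window held 150 bases before or after the exon. Among 38685 tested skipped exons, TAAA was found in 52.4% of the windows before and 52.5% after the exon, TTAA in 54.2% and 52.0%, and TAGGG in 9.26% and 11.3%. Around MAPK8 both exons had TAAA and TTAA in each window, with 4 copies of TAAA after the downstream exon. Around MAPK9 each window held 1 or 2 copies of TAAA and of TTAA, except that TAAA was not found before the upstream exon and TTAA not before the downstream one. Around the upstream exon of MAPK14 none of the 3 was found, while before its downstream exon there were 1 TAAA, 2 TTAA and 1 TAGGG, the only TAGGG in the 12 windows, and after it 1 TTAA. These are matches of letters and not measured binding.

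The last acceptors of MAPK8 and MAPK9 decide how each protein ends. In both genes 2 acceptors lie 5 bases apart at the start of the last exon, and the same 5 bases, in capitals below, are added by use of the upstream one.
MAPK8 acceptors 5 bases apart: tgctgttttgtttctcatagCACAGgtgca
MAPK9 acceptors 5 bases apart: attatatttggttttcttagCACAGatgca
In GENCODE 44 the longest coding transcript through the upstream acceptor of MAPK8 (chr10:48434879) has 384 codons and that through the downstream one 427. For MAPK9 (chr5:180236531) the values are 382 and 424. The upstream acceptor thus gives the shorter protein in both genes.

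JNK1 used mainly the upstream acceptor, apart from control library 3 with 25 upstream and 23 downstream reads, and JNK2 mainly the downstream one in all 6 libraries. PSI of the upstream acceptor of MAPK8 was 77.1%, 76.4% and 51.3% in the controls against 90.1%, 73.2% and 83.3% with SAM68. That of MAPK9 was 19.4%, 11.9% and 19.0% in the controls against 15.3%, 11.1% and 16.4% with SAM68. The groups overlapped in both genes. For MAPK8 the difference was 13.9 points (95% interval -0.308 to 28.1, adjusted p = 0.805, quasi-binomial test), from 31 to 85 reads, and without control library 3 it was 5.43 points. For MAPK9 it was -2.51 points (95% interval -9.13 to 4.10, adjusted p = 0.805), and -4.94 to -0.94 points when each library was left out in turn.

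**Figure D3:**
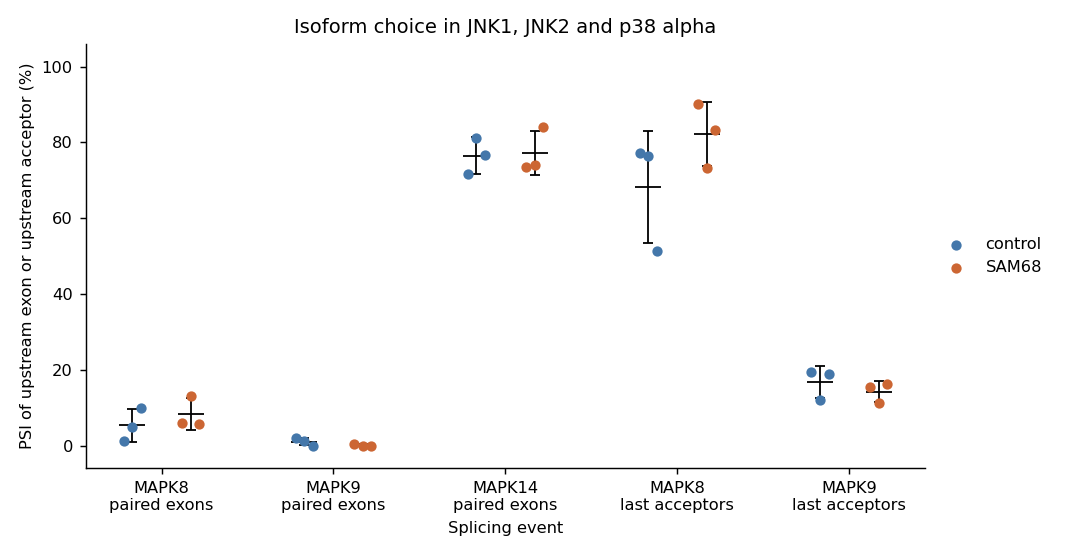
PSI (%, vertical axis) of the upstream exon of the paired exons of MAPK8, MAPK9 and MAPK14, and of the upstream last acceptor of MAPK8 and MAPK9, in each control (blue) and SAM68 (orange) library, with the mean and SD as black bars. The upstream acceptor is the major one in MAPK8 and the minor one in MAPK9, and the groups overlap in every event shown.

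The start of the JNK genes was variable as well. The 130-base exon 3 and the 169-base exon 2 of MAPK9, listed as mutually exclusive, were the only event of the JNK and p38 genes with an unadjusted p under 0.05. The share of exon 2 was 62.7%, 60.4% and 61.3% in the controls against 55.3%, 56.2% and 48.0% with SAM68, and every SAM68 library lay below every control library. The difference was -8.27 points (95% interval -15.9 to -0.651), with an adjusted p of 0.575 in the quasi-binomial test. Exon 2 is partly coding in its 7 coding transcripts, both exons stand together in 8 transcripts, and exon 3 was skipped between exons 2 and 4 in 0, 0 and 2 reads of the control and in none of the SAM68 libraries. Skipping of exon 2 between exon 3 and the first exon had 5, 12 and 5 reads in the controls against 8, 6 and 8 with SAM68. By this event the PSI of exon 2 was 95.85% in the control and 94.5% in the SAM68 libraries. The share given above is therefore a balance of junction reads between neighbouring exons. In MAPK8 a 69-base exon of the first part of the gene (chr10:48325897-48325965), which no coding transcript uses as coding sequence, had a PSI of 89.8%, 35.4% and 26.4% in the controls against 28.5%, 56.8% and 16.1% with SAM68. The difference of -16.7 points was the largest of the 99 events, and without control library 1 it became 2.91 points. Its own dispersion was 11.0 against the 2.296 shared by skipped exons. Read from the 194-base exon before it, the same 69 bases had 43.6%, 35.8% and 36.9% in the controls against 47.4%, 32.1% and 17.02% with SAM68.

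The junction reads of the genes were compared through the event with the most reads of each gene, in rpm of the sum of such reads, and on the log2(rpm + 0.5) scale for fold changes. In bulk RNA fewer cells that express a gene and less RNA per cell cannot be told apart. None of the 10 genes met the rule of an adjusted p under 0.05 and a log2 fold change of at least 1, which called 0.0493% of 10147 genes. An unadjusted p under 0.05 was seen in 3 genes, MAP2K3, MAP2K7 and MAPK9, beside 12.1% of all genes, and only MAP2K3 had an adjusted p under 0.05, as 0.414% of all genes did. Control levels ranged from 14.8 ± 0.550 (SD, n = 3) in MAP2K5 to 293 ± 9.50 (SD, n = 3) in MAP2K2, and since each value comes from 1 event, they do not rank the genes. For the other 9 genes the log2 fold change ranged from -0.30, in MAP2K7 and MAPK9, to 0.04 in MAP4K4, with adjusted p of at least 0.266 in limma.

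**Figure D4:**
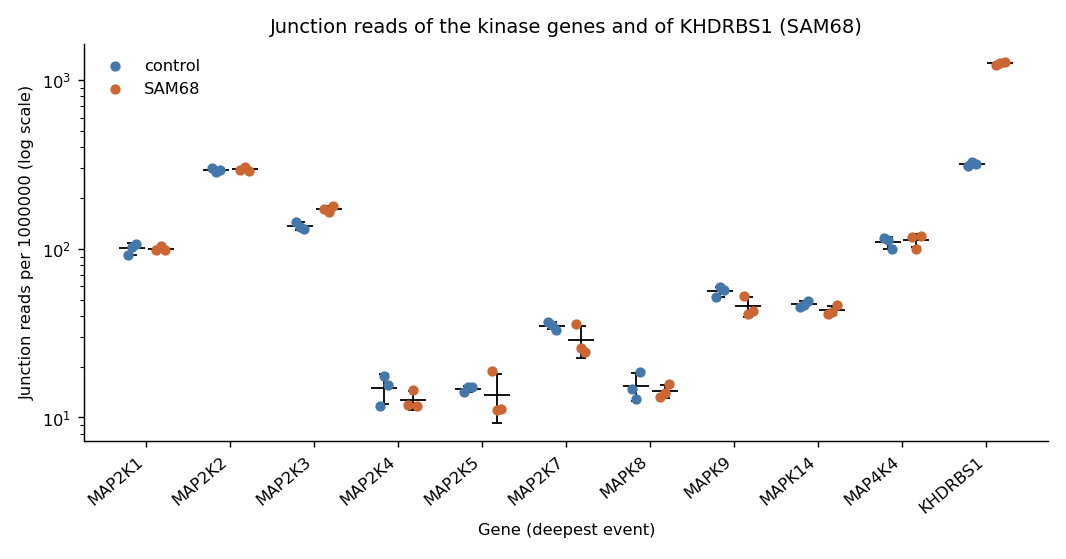
Junction reads per 1000000 (rpm) (vertical axis, log scale) of the deepest event of each kinase gene and of KHDRBS1 in each control (blue) and SAM68 (orange) library, with the mean and SD as black bars. The groups overlap in every kinase gene other than MAP2K3, while KHDRBS1 is near 319 in the control and 1257 in the SAM68 libraries.

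The deepest event of MAP2K3, its 140-base exon 10, had 144, 134 and 130 rpm in the controls against 173, 164 and 179 with SAM68. The groups did not overlap, and limma gave a log2 fold change of 0.34 (standard error 0.072, Benjamini-Hochberg adjusted p = 0.0265). Another event of the gene gave a different value. The second deepest, exon 4, had 139, 155 and 133 in the controls against 136, 143 and 141 with SAM68, with a log2 fold change of -0.03 and an adjusted p of 0.928 in limma. The limma adjusted p of exon 10 was 0.0968, 0.166, 0.124 and 0.121 without control library 1, 2 or 3 or SAM68 library 1, and 0.0158 and 0.0485 without SAM68 library 2 or 3, with log2 fold changes of 0.31 to 0.38.

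Along MAP2K3 the total reads per event fell into stretches. At the start of the gene, the events on the junctions of the first exon, read around a 95-base and a 125-base exon, had means of 64.6 and 67.2 rpm in the control and 82.7 and 88.7 in the SAM68 libraries, ratios of 1.28 and 1.32. Another event there, which reads the same 95-base exon with another downstream exon and had a mean of 13.2 reads, was at 1.37 ± 0.954 (SD, n = 3) and 3.19 ± 1.09 rpm (SD, n = 3), with overlapping groups. In the middle the events of exons 4 and 7 had ratios of 0.946 to 0.994 and their groups overlapped. From exon 8 to exon 10 the ratios were 1.21, 1.26, 1.27 and 1.30, and no group overlapped. The groups did not overlap in 6 of the 11 events, beside 16.7% of all tested events, but events of 1 gene share reads. This comparison along the gene was made after its values were seen.

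**Figure D5:**
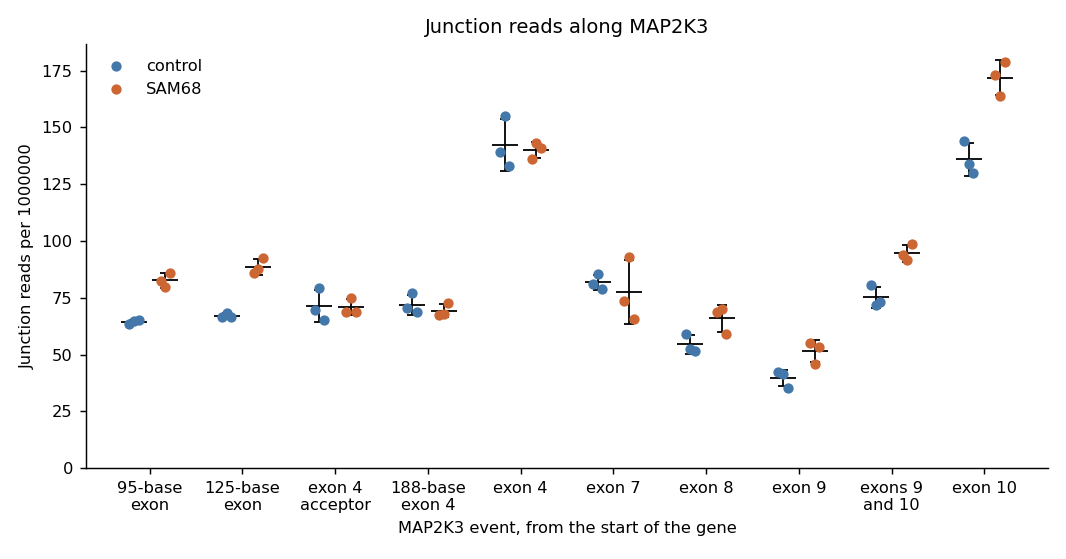
Junction reads per 1000000 (rpm) (vertical axis, from 0) of 10 of the 11 events of MAP2K3 in order along the gene, without the event with a mean of 13.2 reads, in each control (blue) and SAM68 (orange) library, with the mean and SD as black bars. SAM68 libraries lie above the controls in the first 2 and the last 4 events, and overlap with them in the events of exons 4 and 7.

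Other genes of the cascades were counted by lists. Events with an unadjusted p under 0.05 numbered 4 of 73 among MAP3K and RAF kinases, 4 of 41 among the other MAP4K kinases, 2 of 38 among the other MAP2K and MAPK kinases, 1 of 59 among scaffolds and adaptors, 1 of 16 among dual specificity phosphatases and 5 of 101 among substrates. These 17 of 328 events made up 5.18%, beside 5.95% of all tested events. None of them was called, and no gene of these lists had an adjusted p under 0.05 for its junction reads, while 6 of 50 had an unadjusted p under 0.05, beside 12.1% of all genes. Median log2 fold changes of junction reads lay between -0.11 and 0.05.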

How the data were processed

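RNA of 3 control and 3 SAM68 libraries was sequenced by the authors as paired-end reads of 150 bases. The authors removed reads with adaptors, unknown or poor bases, trimmed the start of the reads, aligned them to GRCh38 and ran rMATS, whose version and annotation are not given in the sources used here. The submitters' processing notes name fastp 0.20.0, HISAT2 2.1.0 and CASAVA 1.4. Each type of event has its own deposited table, 5 in all, with raw junction read counts of both forms as lists of 3 values per group, with effective lengths and the authors' inclusion levels, p-values and differences. The last 2 were not used. The lists carry no replicate numbers, and the first list was taken as control because the study's plot of PKM gives it to the control libraries. In the A3SS table, digits of 275 events had been regrouped. Of these, 139 were recovered and 136 left out before the events of the kinases were counted.

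A quasi-binomial model in R 4.3.3 tested PSI wherever the mean over the 6 libraries was 10 reads or more. The dispersion was moderated within a type by squeezeVar of limma 3.58.1 and never under 1. The prior was infinite, which gave 1 common dispersion per type (SE 2.296, MXE 2.53, A3SS 2.33, A5SS 2.515, RI 2.011). Events with a larger spread of their own are tested against too small a spread. Junction reads per gene were tested with limma on log2(rpm + 0.5) in place of the planned edgeR test, which was not run. Scripts were tested on simulated data. Coordinates were checked on hg38, where AG stood before 99.90% and GT or GC after 99.93% of 38685 skipped exons. Annotation is GENCODE 44.

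The genes and lists were chosen with earlier results of these data known. Named events are the deepest mutually exclusive event of MAPK8, MAPK9 and MAPK14, the deepest event with PSI from 5% to 95% of each gene, the deepest event of each splice site type, and the 12 smallest p-values. Others were named after their values were seen. Alternatives were the treatment of the spread, read minimum, limits, length scaling and leaving out each library.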

Additional observations from a re-analysis of the deposited data

How the results depend on the processing

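No event was called under any setting tried, which were unmoderated spread, limma on logit PSI, a mean of at least 20 reads or 1 read, all types adjusted together, a limit of 5 points or none, and leaving out each library (0 to 0). The smallest adjusted p of a named event ranged from 0.142 to 0.827. Events with an unadjusted p under 0.05 numbered 7, but 3 with unmoderated spread, 3 by limma on logit PSI and 6 to 9 without each library. No kinase gene was called for junction reads under any setting (0 to 0 without each library). With the second deepest event of a gene, the log2 fold change changed sign for MAP2K1 (0.03), MAP2K3 (-0.03), MAP2K5 (0.32), MAPK8 (0.01) and MAP4K4 (-0.02), where the events hold other junctions.

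Leaving out 1 library turned the sign of named PSI differences that were near 0 or wide, namely the 69-base exon of MAPK8 (-28.8 to 2.91 points), the MAPK14 pair (-2.74 to 3.00), the 24-base donor (-1.51 to 1.00) and 9-base exon (-9.14 to 3.07) of MAP4K4, the 48-base exon (-2.24 to 1.59) and retained intron (-0.22 to 0.66) of MAP2K7 and the retained intron of MAP2K2 (-0.21 to 0.23). Ranges for log2 fold changes that crossed 0 were -0.07 to 0.04 for MAP2K1, -0.01 to 0.04 for MAP2K2, -0.21 to 0.05 for MAPK8 and -0.03 to 0.12 for MAP4K4. That of MAP2K3 stayed at 0.31 to 0.38. No paired analysis was possible because the lists carry no replicate numbers. The DESeq2 alternative was not run. Depth limits MAPK8, MAP2K4, MAP2K5 and the 93-base exon of MAPK9, where a difference of 10 points lay within the intervals of several events.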
